A study of Mus musculus with 12 samples.

Results

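The small heat shock protein genes of muscle are Hspb1, Hspb2, Hspb3, Cryab, Hspb6, Hspb7 and Hspb8, and their messenger RNA was described here in the gastrocnemius, a calf muscle, of 12 mice. The members were taken by gene symbol from the annotation of the array, an Illumina MouseWG-6 v2 BeadChip, on which a bead-bound probe gives a fluorescence intensity for its transcript. The 7 genes have 9 probes, and a probe was kept where its detection p-value was under 0.05 on at least 6 of the 12 arrays. This left 8 probes of 7 genes, of 15570 probes and 9034 genes kept in all, and each of the 8 was detected on all 12 arrays. The second probe of Hspb1 was detected on 0 arrays and was not analysed further.

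All 12 mice were males of the C57BL/6J strain, aged 10 to 12 weeks and weighing 22 to 26 g, with an implanted temperature transponder. Each was exposed to heat in a chamber set to 39.5°C for up to 3 h, with food and water removed, and the muscle was taken the day after. The 6 mice labelled TOL (heat tolerant) and the 6 labelled INT (heat intolerant) were sorted by their own core temperature in that test, and no unheated mice were in the data used here. The titles carry mouse numbers, 3, 4, 5, 7, 9 and 11 in both labels, so a mouse is named below as INT 3 or TOL 3.

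Small heat shock proteins are chaperones built around an α-crystallin domain that bind unfolding proteins without using ATP and hold them until other chaperones refold them or they are degraded. Striated muscle expresses more of the family than most tissues, where they bind actin, desmin, titin and filamin and protect the sarcomere during heat, stretch and oxidative stress. The genes of some of them are targets of heat shock factor 1, the transcription factor that switches on chaperones in heat, and several are regulated by muscle transcription factors as well. The relatives Cryaa of the lens, Hspb9 and Odf1 of the testis, and Hspb11 were detected on 0 arrays with any probe.

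The muscle markers fitted the labelled tissue. All 6 skeletal muscle markers passed the detection filter, whereas of 5 heart markers Nppa, Myl7 and Tnni3 did not, and Myh6 and Actc1 were detected on all 12 arrays. No marker of fast-twitch fibre, heart, smooth muscle, endothelium, adipocyte, Schwann cell, macrophage or red blood cell was called between the labels by limma, and at an unadjusted p of 0.05 or less Acta2 and Rgs5 of smooth muscle and pericytes were lower and Tnnt3 of fast fibres higher in TOL. The arrays detected between 15179 and 17017 probes each. The brightest probe of an array read from 16465 to 18957 units in INT and from 14644.5 to 15963 in TOL, so the labels did not overlap in it. The array of TOL 11 stood apart from the rest, with a mean r of 0.973 to the other arrays, where the others had 0.981 to 0.987, and with the fewest probes detected and the lowest brightest signal, and the part of this in its values was not tested. A chip of this kind carries several arrays, the sources used here do not say which mice shared one, and a chip effect and the labels cannot be told apart. Values below are log2 intensities after background correction and quantile normalization of the arrays. Intensities of different probes are not on 1 scale, so levels were compared between mice and not between genes.

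The sequence before the start site was available for 5 of the 7 genes (RefSeq, GRCm38.p6) and was searched for a heat shock element, the short inverted repeat that heat shock factors bind, as GAANNTTC or TTCNNGAA, over 250 bases before and 50 bases after the start. Both patterns read the same on either strand. Of 32851 mouse windows of this length, 7.86% held GAANNTTC, 8.52% held TTCNNGAA and 15.1% held either. The sequences printed are the 250 bases upstream of Hspb1 and Hspb7, the most variable genes of the family, and of the downstream of the 2 annotated starts of Hspb6, each 5′ to 3′ on the plus strand with GAANNTTC in capitals.
Hspb1, chr5:135887669-135887918: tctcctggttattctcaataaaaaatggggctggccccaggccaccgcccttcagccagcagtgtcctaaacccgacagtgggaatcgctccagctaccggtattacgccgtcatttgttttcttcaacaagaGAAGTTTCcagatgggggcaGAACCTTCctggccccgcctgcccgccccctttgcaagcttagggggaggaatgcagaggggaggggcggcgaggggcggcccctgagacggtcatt
Hspb6, chr7:30553051-30553300: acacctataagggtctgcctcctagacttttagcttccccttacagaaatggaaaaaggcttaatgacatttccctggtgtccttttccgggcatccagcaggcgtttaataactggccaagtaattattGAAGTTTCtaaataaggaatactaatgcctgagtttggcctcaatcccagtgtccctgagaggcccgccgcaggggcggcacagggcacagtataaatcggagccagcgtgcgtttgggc
Hspb7, chr4:141420529-141420778: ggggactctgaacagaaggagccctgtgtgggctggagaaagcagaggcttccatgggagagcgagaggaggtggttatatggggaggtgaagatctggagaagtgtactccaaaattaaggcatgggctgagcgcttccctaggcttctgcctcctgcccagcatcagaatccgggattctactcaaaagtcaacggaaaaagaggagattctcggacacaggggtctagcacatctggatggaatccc
The Hspb1 window held 2 such matches, GAAGTTTC beginning 117 bases and GAACCTTC 97 bases before the start. Hspb6 had GAAGTTTC 120 bases before its downstream start and none at the upstream one. In Hspb8 the same 8 letters GAAGTTTC lay 3 bases after the start, and Hspb3 had GAATTTTC 224 bases before its start together with a MEF2 box, CTATAAATAG, 12 bases before it. The MEF2 box, searched on both strands, was in 3.19% of all windows. The Hspb7 window held none of these letters, and Hspb2 and Cryab had no window. A match is a stretch of letters and not a measured binding site. Hspb2 (chromosome 9, 50751072 to 50752354) lies within the annotated span of Cryab (50745951 to 50756636).

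No small heat shock protein probe passed the test between TOL and INT mice. At an adjusted p under 0.05 (limma, Benjamini-Hochberg over all tested probes) 0 of the 8 member probes were called, where 0.829% of all tested probes were called. At an unadjusted p of 0.05 or less it was again 0 of 8, beside 9.91% of all tested probes. On average 4 of the 8 probes were higher in TOL and 4 lower, and the direction of Hspb3, Hspb6 and Hspb8 turned when arrays were scaled by their median only. The median log2 fold change of the 8 probes was -0.0072, where that of all tested probes was 0.0016. In whole muscle, fewer cells of a type and less RNA per cell cannot be told apart.

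Hspb1 (Hsp25 in the mouse, Hsp27 in humans) binds actin filaments and guards the cytoskeleton, and in muscle it moves to the sarcomere under stress. The INT mice read from 8.69 to 10.52 with a median of 9.46, and the TOL mice from 9.25 to 11.33 with a median of 9.57. TOL 11 was the highest of the 12, TOL 5 was also above every INT mouse, and the lowest 3 readings were INT 4, INT 7 and INT 11. The TOL mean was 1.35-fold the INT mean, a log2 fold change of 0.44 (SE 0.37, 95% interval -0.34 to 1.22, limma adjusted p = 0.755, 6 mice each), and the exact two-sided permutation p was 0.377. The spread within each label was larger than this difference.

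Cryab, αB-crystallin, is the desmin chaperone of the family and the one whose human mutations cause desmin-related myopathy. It ranged from 10.29 to 11.66 in INT, with a median of 10.90, and from 9.86 to 11.34 in TOL, with a median of 11.07. The highest value was INT 5 and the lowest TOL 9, and the other TOL mice all lay within the INT range. The log2 fold change was -0.02 (SE 0.26, 95% interval -0.57 to 0.53, limma adjusted p = 0.988).

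Hspb7 (cvHsp) is expressed in heart and skeletal muscle and binds filamin C. The study reported Hspb7 as significantly different between TOL and INT on its arrays, and as lower in TOL by RT-qPCR. Hspb3 was also among its selected array genes and assayed by RT-qPCR. The RT-qPCR was not analysed here. In the array values here neither gene was called, and the unadjusted limma p was 0.678 for Hspb7 and 0.592 for Hspb3. The TOL mean of Hspb7 was 0.88-fold the INT mean. The INT values of Hspb7 ran from 6.96 to 9.46 with a median of 8.38, and its TOL values from 7.13 to 8.95 with a median of 8.08. The INT mice formed a high set of INT 3, INT 5 and INT 9, at or above 9.04, and a low set of INT 4, INT 7 and INT 11, at or below 7.72, and all TOL mice lay between the INT extremes. The log2 fold change was -0.18 (SE 0.43, 95% interval -1.09 to 0.73, limma adjusted p = 0.931) and the exact two-sided permutation p was 0.738.

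Hspb8 (Hsp22) works with the co-chaperone Bag3 to send damaged filamin to autophagosomes. Its brighter probe read from 11.59 to 12.29 in INT (median 12.07) and from 11.68 to 12.54 in TOL (median 11.94). The log2 fold change of 0.0099 (SE 0.15, 95% interval -0.30 to 0.32, limma adjusted p = 0.992) was far under the spread between mice, and the second probe gave -0.11 (SE 0.18, limma adjusted p = 0.898). Across the 12 mice both Hspb8 probes rose and fell together, with r = 0.87 (permutation p = 0.00048) and Spearman's rho = 0.87 (permutation p = 0.0007), and r was 0.90 without TOL 5 and INT 7, the mice farthest from the median.

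Hspb6 (Hsp20) is the family member best known as a target of protein kinase A in smooth and heart muscle. INT mice read from 13.18 to 13.63 (median 13.45) and TOL mice from 13.34 to 13.78 (median 13.59), with TOL 11 highest and INT 11 lowest. The difference was 0.11 on the log2 scale (SE 0.09, 95% interval -0.08 to 0.30, limma adjusted p = 0.755). The signal of this probe was from 52.5% to 88.0% of the brightest probe of its array, and whether the scanner's upper range limited it was not tested.

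Hspb2 and Hspb3 form a complex of their own in muscle, and Hspb2 binds the myotonic dystrophy kinase Dmpk. For Hspb2 the INT mice read from 7.88 to 8.35 (median 7.96) and the TOL mice from 7.67 to 8.18 (median 7.87), and 5 of the 6 TOL mice lay under the INT mean. It had the smallest p of the family, with a log2 fold change of -0.15 (SE 0.11, 95% interval -0.38 to 0.08, limma adjusted p = 0.706, exact two-sided permutation p = 0.188). Hspb3 read from 7.39 to 8.002 in INT (median 7.89) and from 7.53 to 8.35 in TOL (median 7.80), a log2 fold change of 0.08 (SE 0.14, 95% interval -0.23 to 0.38, limma adjusted p = 0.908). TOL 5, TOL 7 and TOL 9 lay under every INT mouse in Hspb2, while in Hspb3 TOL 3 and TOL 5 lay above every INT mouse and none below.

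**Figure D1:**
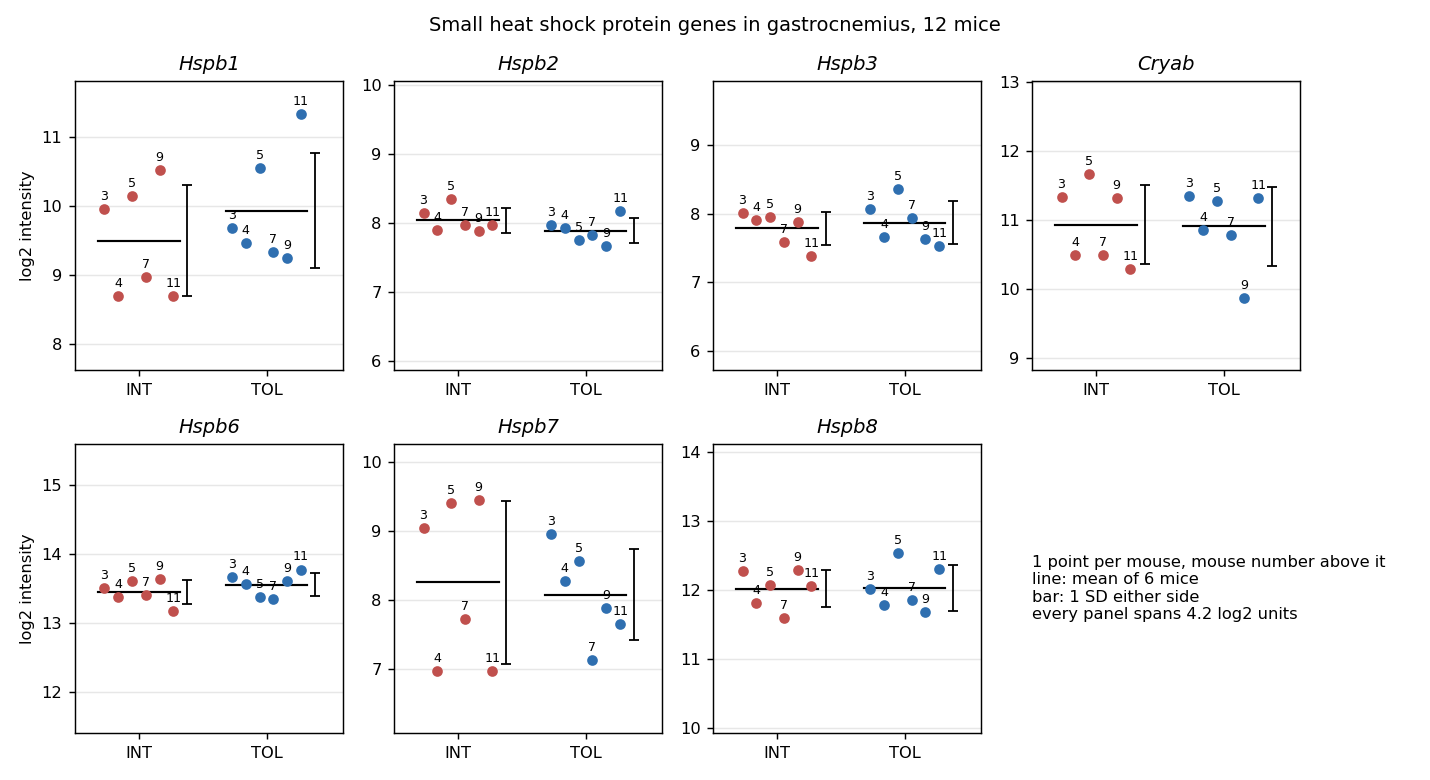
Log2 intensity of the 7 genes in each mouse, with INT in red and TOL in blue, the mouse number above each point, the mean of 6 mice as a line and 1 SD either side as a bar. Every panel spans the same height, so the wide scatter of Hspb1, Cryab and Hspb7 and the narrow scatter of Hspb2 and Hspb6 can be read directly, and in each panel the labels overlap.

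Mice of the same label differed widely in some members and little in others. Hspb7 had an SD of 0.918 over the 12 mice and a 5.63-fold range from the lowest to the highest mouse, and its SD exceeded that of all but a few tested probes, at the 99.7th percentile. Hspb1 followed with an SD of 0.813 and a 6.22-fold range, at the 99.6th percentile. For Cryab the SD was 0.544 and the range 3.48-fold, at the 98.4th percentile. Within a label the SD of Hspb7 was 1.18 in INT and 0.658 in TOL. That of Hspb1 was 0.807 in INT and 0.831 in TOL, and that of Cryab 0.573 and 0.567. These 3 members had the widest spread of the family. At the other end stood Hspb2 and Hspb6, with SDs of 0.190 and 0.171 and ranges of 1.61-fold and 1.51-fold, close to the median SD of all tested probes of 0.173. Hspb3, at 0.270, and Hspb8, at 0.289 for its brighter and 0.366 for its second probe, lay between. The median SD of the 8 member probes was 0.327.

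Spread depends on brightness on these arrays, so each probe was also set beside the probes within 0.5 log2 units of its mean. Against 1140 such probes Hspb7 stood at the 99.6th percentile, and against 557 probes Hspb1 stood at the 98.4th. Hspb6 moved most by this reading, to the 97.5th percentile of only 40 equally bright probes, whose median SD was 0.101. Cryab was at the 94.8th of 250 probes and Hspb2 at the 44.4th of 1287. Hspb3 was at the 78.0th percentile, and Hspb8 at the 85.7th for its brighter and the 92.3rd for its second probe.

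**Figure D2:**
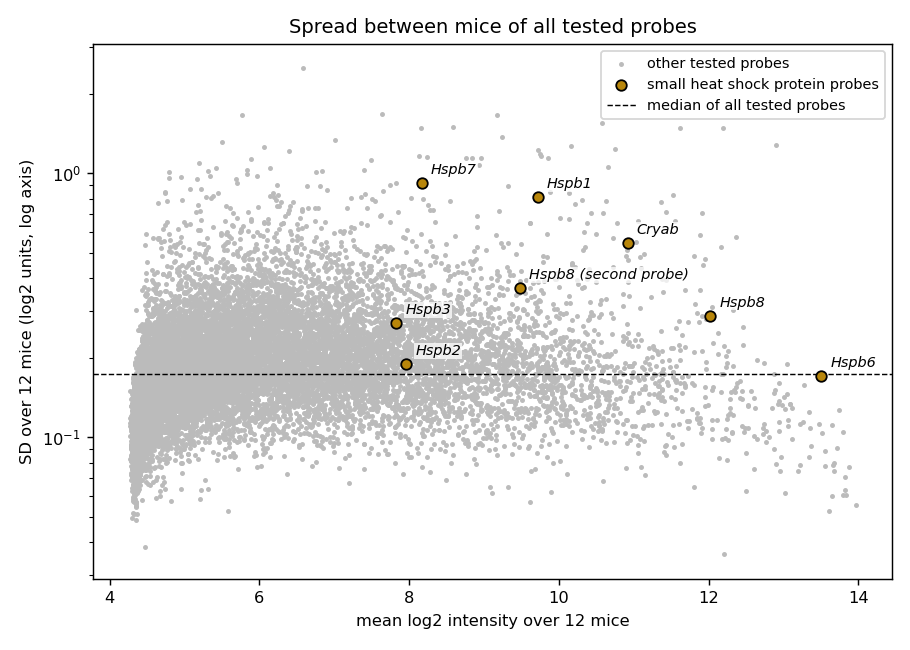
Standard deviation over the 12 mice (log axis) against the mean log2 intensity of each of the 15570 tested probes, with the 8 small heat shock protein probes marked and the median of all probes as a dashed line. Hspb7, Hspb1 and Cryab sit at the upper edge of the cloud, and Hspb6 lies on the median line but above nearly all probes as bright as itself.

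The mice that were high in one member tended to be high in others, above all among INT. INT 5 was above the 12-mouse median for 7 of 7 genes, INT 3 for 6 and INT 9 for 5, against 1 for INT 4, 1 for INT 7 and 2 for INT 11. INT 3, INT 5 and INT 9 lay wholly above INT 4, INT 7 and INT 11 for 5 of the 7 genes, namely Hspb1, Cryab, Hspb6, Hspb7 and Hspb8, where 9.62% of all 9034 tested genes were apart in this direction. For Cryab the high set spanned 11.32 to 11.66 and the low set 10.29 to 10.49, and for Hspb1 they spanned 9.96 to 10.52 and 8.69 to 8.96. Among TOL mice the same numbers were apart for 0 of 7 genes and for 7.24% of all tested genes. TOL 3 was above the median for 6 genes, TOL 5 and TOL 11 for 5 each, TOL 4 for 2, and TOL 7 and TOL 9 for 1 each. These sets were read from the values and carry no label, so they were not tested, and no correlation between members within INT is given.

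Over all 12 mice, 20 of the 21 gene pairs had a positive correlation, with a median r of 0.47 and a range from -0.09 to 0.76. None of them passed an adjusted p of 0.05 over the 28 relations computed (21 pairs and the 7 relations to slow-twitch genes described below), the smallest adjusted permutation p being 0.0781. The pairs share their arrays, so any array-wide shift in signal would enter each of them. The high and low INT sets enter each pair among Hspb1, Cryab, Hspb6, Hspb7 and Hspb8 as well. The part of these sets in r was not tested. Under median scaling, which equalises only the medians of the arrays, 6 pairs passed.

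Hspb1 and Hspb8 had the highest r, 0.76 (permutation p = 0.0045, adjusted p = 0.0781), with rho = 0.80 (permutation p = 0.0026, adjusted p = 0.0715) and r = 0.67 without TOL 11 and TOL 5, the mice farthest from the Hspb1 median. Next came Hspb1 and Cryab at r = 0.75 (permutation p = 0.0056, adjusted p = 0.0781), with rho = 0.73 (permutation p = 0.0087, adjusted p = 0.0812) and r = 0.80 without the same mice. INT 4, INT 7, TOL 4, TOL 7 and TOL 9 lay below the 12-mouse median in all 3 genes, and INT 3, INT 5, INT 9, TOL 5 and TOL 11 above it. Cryab and Hspb7 followed at r = 0.72 (permutation p = 0.0098, adjusted p = 0.0913), with rho = 0.77 (permutation p = 0.0051, adjusted p = 0.0715) and r = 0.80 without TOL 9 and INT 11. Cryab had r from 0.46 to 0.75 with each of the other 6 genes.

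The r of Hspb1 with Hspb7 rose when TOL 11 was left out. Over 12 mice r was 0.56 (permutation p = 0.0618, adjusted p = 0.193), with rho = 0.64 (permutation p = 0.0280, adjusted p = 0.157). Without TOL 11 and TOL 5, r was 0.93 over 10 mice (permutation p = 0.00018), and without TOL 11 alone it was 0.87 (adjusted permutation p = 0.0297). TOL 11 was singled out after the values were seen, and neither p is adjusted for that choice. TOL 11 had the highest Hspb1 of all mice, 11.33, but an Hspb7 of only 7.66, in the lower part of the range. All 6 INT mice are in the r with and without TOL 11, and in both genes they form the high and low sets described above. The p of these r therefore include a split that was read from the values. Among the 6 TOL mice alone r was 0.04 (exact permutation p = 0.939).

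Hspb2 and Cryab, neighbours on chromosome 9, had r = 0.63 (permutation p = 0.0284, adjusted p = 0.132) and rho = 0.61 (permutation p = 0.0395, adjusted p = 0.158). Without INT 5 and TOL 9, the mice farthest from the Hspb2 median, r was only 0.22. It was 0.51 without INT 5 alone (adjusted permutation p = 0.329) and 0.67 among the 6 TOL mice (exact permutation p = 0.143). Hspb2 and Hspb3, whose proteins pair with each other, were the only genes with a negative r, -0.09 (permutation p = 0.775, adjusted p = 0.835), with rho = -0.04 (permutation p = 0.904, adjusted p = 0.937). Their sign turned under median scaling and without TOL 5 or TOL 11. Among the 6 TOL mice alone 17 of the 21 pairs were above 0 and the median r was 0.36.

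**Figure D3:**
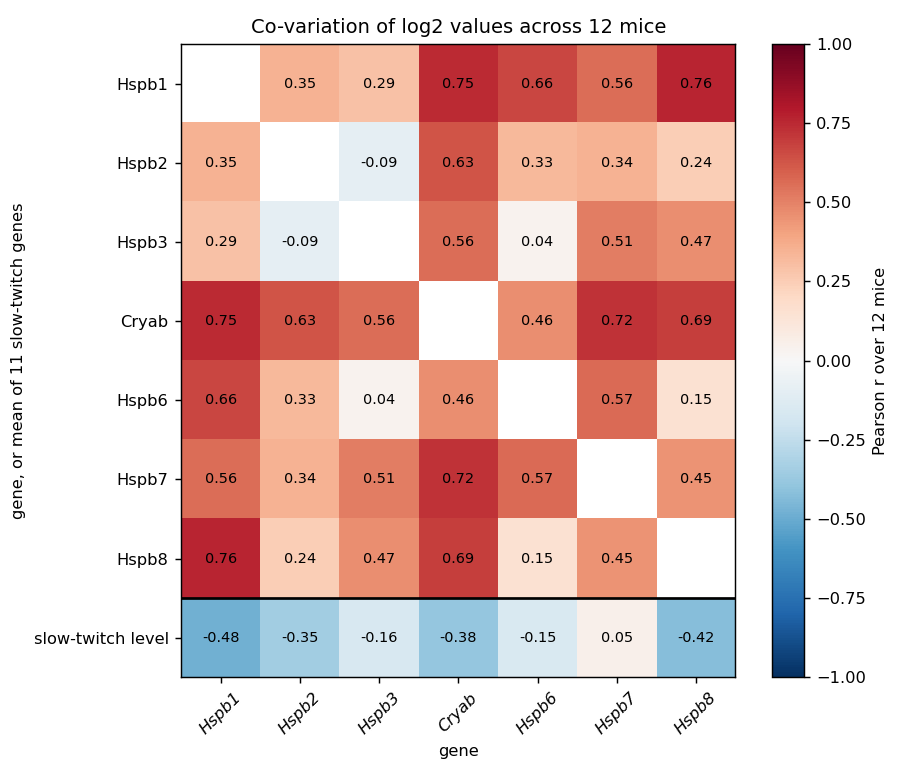
Pearson r across the 12 mice for every pair of the 7 genes, and in the bottom row for each gene with the mean log2 intensity of 11 slow-twitch genes, on a colour scale from -1 (blue) to 1 (red). The darkest cells are those of Hspb1 with Hspb8 and Cryab, and of Cryab with Hspb7 and Hspb8. Only Hspb2 with Hspb3 is below 0 among the pairs, and the bottom row is below 0 for 6 of 7 genes.

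Small heat shock proteins are known to be more abundant in slow, oxidative fibres, and the slow-twitch genes varied strongly here. Their mean log2 intensity over 11 genes (Tnnt1, Tnnc1, Myl2 and others) was from 8.90 to 10.44 in INT and from 8.09 to 9.61 in TOL, with INT 9 highest and TOL 11 lowest. Of the 11, 10 were lower on average in TOL and 0 were called (at the unadjusted limit of 0.05, 7 were lower in limma and 1, Mb, was higher). No relation of a member with this level passed the test over the 12 mice, with r from -0.48 for Hspb1 to 0.05 for Hspb7 and a smallest adjusted permutation p of 0.280. For 6 of 7 genes r was below 0.

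The relation of Hspb1 with the slow-twitch level turned on INT 9. Over 12 mice r was -0.48 (permutation p = 0.110, adjusted p = 0.280) and rho was -0.65 (permutation p = 0.0260, adjusted p = 0.157). Without INT 9 and TOL 11, r was -0.88 (permutation p = 0.00052), and without INT 9 alone it was -0.93 (adjusted permutation p = 0.0014). INT 9 was singled out after the values were seen, and no p without it is adjusted for that choice. Among the 6 TOL mice r was -0.96 (exact permutation p = 0.00139, the smallest that 720 pairings can give, 0.0389 adjusted over the 28 relations within TOL). TOL 11 and TOL 5, with slow-twitch levels of 8.09 and 8.33, had the highest Hspb1, and TOL 9, at 9.61, the lowest. Hspb8 had r = -0.92 among the TOL mice (exact permutation p = 0.0153, adjusted p = 0.214) and -0.42 over all 12 (permutation p = 0.171, adjusted p = 0.320), against -0.83 without INT 9 (adjusted permutation p = 0.0195). Among the 6 INT mice r was 0.19 for Hspb1 (exact permutation p = 0.767) and 0.10 for Hspb8 (exact permutation p = 0.846). INT 9 combined the highest slow-twitch level, 10.44, with an Hspb1 of 10.52, the highest among INT. The part that the piece of muscle taken from each mouse has in this was not tested.

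**Figure D4:**
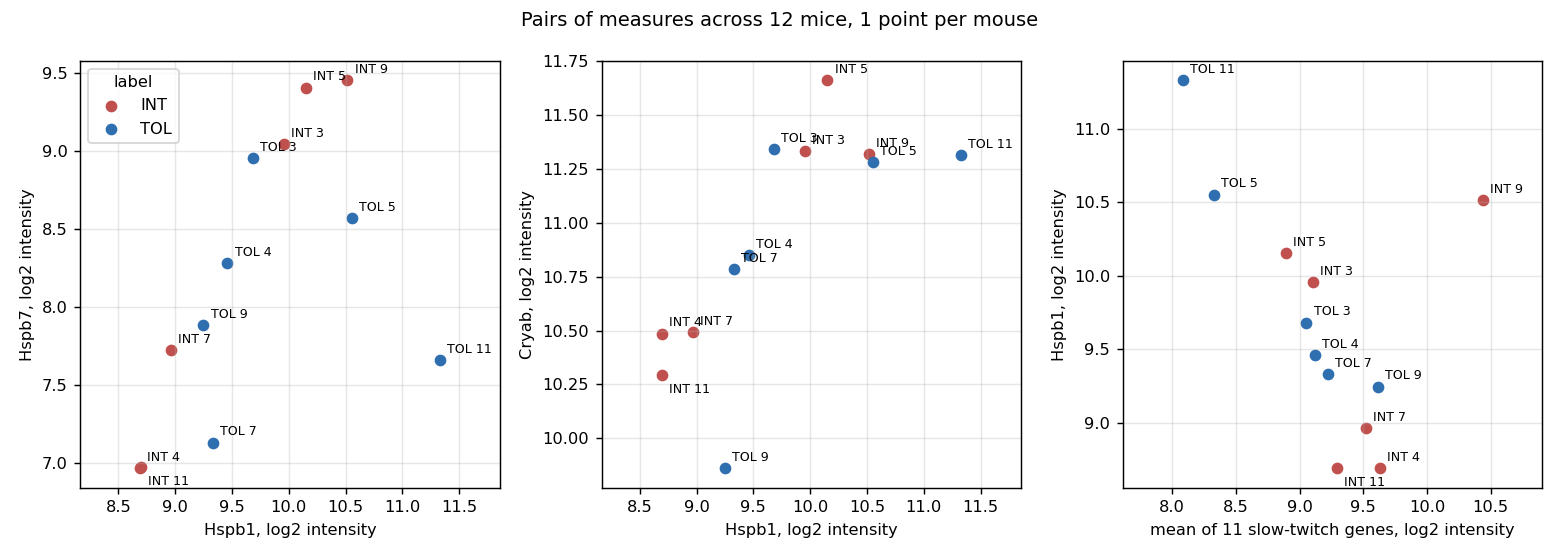
Hspb7 against Hspb1, Cryab against Hspb1, and Hspb1 against the mean of 11 slow-twitch genes, all as log2 intensities with 1 point per mouse (INT red, TOL blue). TOL 11 stands off the trend in the left panel, TOL 9 lies lowest in the middle panel, and INT 9 is the only mouse high on both axes in the right panel.

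Each member was then ranked against the other 9033 tested genes by r over the 12 mice, as a description with no p. For Hspb1 the most alike were Pfkfb4 (0.92), a glycolysis regulator, Mt1 (0.90), a metallothionein that binds zinc and is induced by stress hormones, Tuba4a (0.89), an α-tubulin, Adpgk (0.89), a glucokinase that uses ADP, and 6430548M08Rik (0.88). Mt1 was at 13.43 in TOL 11, where Hspb1 also peaked, and at 11.99 in both INT 5 and INT 9. Cryab was most like 4930524J08Rik (0.95), Klhl40 (0.91), a stabiliser of thin filament proteins, Saraf (0.90), a brake on store-operated calcium entry, Hspe1 (0.90), the mitochondrial Hsp10, and Slc19a1 (0.87), a folate carrier. Klhl40 ran from 7.39 in TOL 9 to 9.78 in INT 5, the mice in which Cryab was also lowest and highest.

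Hspb7 was closest to H2bc12 (0.92), a histone, Mustn1 (0.92), a small nuclear protein of regenerating muscle and bone, St6galnac4 (0.91), Nol6 (0.91) and Cilk1 (0.89). Mustn1, picked by its r with Hspb7, showed the same sets within INT, as did 9.62% of all tested genes. It read 11.18 to 11.59 in INT 3, INT 5 and INT 9 and 8.60 to 8.78 in INT 4, INT 7 and INT 11. For Hspb8 the list was Opn1mw (0.94), Ppme1 (0.93), a phosphatase methylesterase, Asb2 (0.92), a ubiquitin ligase subunit that degrades filamins, Uhrf1bp1 (0.91) and Plpp2 (0.88). Hspb6 was nearest to Srm (0.86), spermidine synthase, and to Hspa1l (0.86), a member of the Hsp70 family, then Aph1a, Dus4l and Tram2. For Hspb3 it was Armc10 (0.92), Acsl5, 2700046G09Rik, Psmb10 and Tmem164, and for Hspb2 Itfg2 (0.87), Slc45a3, Nsun2, Senp1 and Zgrf1. Several of these genes were dim, with 12-mouse means of 4.43 (Tram2), 4.35 (Slc45a3), 4.46 (Nsun2), 4.49 (Senp1) and 4.39 (Zgrf1). The undetected Hspb1 probe averaged 4.13. No member was among the 5 genes most like another member, and the member closest to another by rank was Hspb1, at rank 55 for Cryab.

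The partners of these proteins were described next, by lists that name them and not by how they moved. Of the 10 listed genes of chaperone-assisted autophagy, the pathway of Hspb8 and Bag3, 9 were tested, 7 were higher and 2 lower on average in TOL, and 0 were called. Map1lc3b, the autophagosome protein LC3B, had the smallest p (log2 fold change 0.35, SE 0.12, unadjusted p = 0.0124, limma adjusted p = 0.335). Of 10 sarcomere and cytoskeleton partners 0 were called, with Actb, cytoplasmic actin, at 0.26 (SE 0.07, limma adjusted p = 0.155) and Myot, myotilin of the Z-disc, at 0.46 (SE 0.20, limma adjusted p = 0.451). Among kinases that phosphorylate the family, such as Mapkapk2 and Prkaca, 6 of 10 were tested and 0 were called, with changes from -0.04 to 0.17. The one listed regulator that was called was Mef2c, a muscle transcription factor, which fell by 0.79 in TOL on the log2 scale (SE 0.18, limma adjusted p = 0.0484), of 7 regulators tested. The direction held but the call was lost in 14 of 22 alternatives, with adjusted p from 0.0081 to 0.244, among them leaving out any 1 of INT 4, INT 5, INT 7, INT 9, INT 11, TOL 3, TOL 5, TOL 9 and TOL 11 (adjusted p from 0.0622 to 0.128).

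Flnc, filamin C, which both Hspb7 and the Hspb8 pathway bind, was chosen for a closer look after its values were seen. It lay between 10.60 and 12.48 in INT and between 10.40 and 11.93 in TOL, and like Hspb7 it was high in INT 3, INT 5 and INT 9 (12.23, 12.45 and 12.48) and low in the other INT mice (10.60 to 10.80). Its r with Hspb7 was 0.87, rank 14 of 9033 genes, and with Cryab 0.83, rank 18. With Hspb1 it was 0.76 and with Hspb8 0.75. The desmin gene Des had r = 0.73 with Hspb7 and 0.48 with Cryab. These r are descriptions over the same 12 arrays. The split of the INT mice was shown by 9.62% of all tested genes, and its part in these r was not tested.

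The inducible chaperones Hspa1a and Dnajb1 were high in a different set of mice. Hspa1a, the inducible Hsp70, was at 10.04, 8.88 and 12.41 in TOL 4, TOL 7 and TOL 11 and between 4.64 and 6.26 in the other 9 mice. Dnajb1, its Hsp40 partner, was at 10.73, 10.25 and 9.77 in the same 3 mice and at 8.09 or below in the rest. No r is given for genes that split in this way. Bag3 and Hspa8 of the same list were not split in this way, though both were highest in TOL 11. Hspa8 was at 12.28 in TOL 11, but at 11.83 in TOL 4 and 11.59 in TOL 7, against 11.19 to 11.95 in the other 9 mice. Nor were the small heat shock proteins: of the 3 mice, only TOL 11 was high in Hspb1 (11.33), while TOL 4 and TOL 7 read 9.46 and 9.33, below the TOL mean of 9.93. For Hspb7 the same mice read 8.28, 7.13 and 7.66, and for Cryab 10.85, 10.79 and 11.32. Of 11 listed heat shock factors and inducible chaperones tested, 8 were higher in TOL on average and 0 were called, with Hspa1a at a log2 fold change of 2.35 (SE 1.01, limma adjusted p = 0.457).

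TOL 11, whose array stood apart as a whole, held the highest Hspb1, Hspb6, Hspa1a and Bag3 of all 12, the lowest slow-twitch level, and a Bag3 of 12.45 where the other TOL mice were between 10.58 and 11.06. Bag3 had an r of 0.75 with Hspb1, 0.42 with its partner Hspb8 and 0.06 with Hspb7. Without TOL 11 the log2 fold change of Hspb1 was 0.16 (limma adjusted p = 0.940) in place of 0.44.

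**Figure D5:**
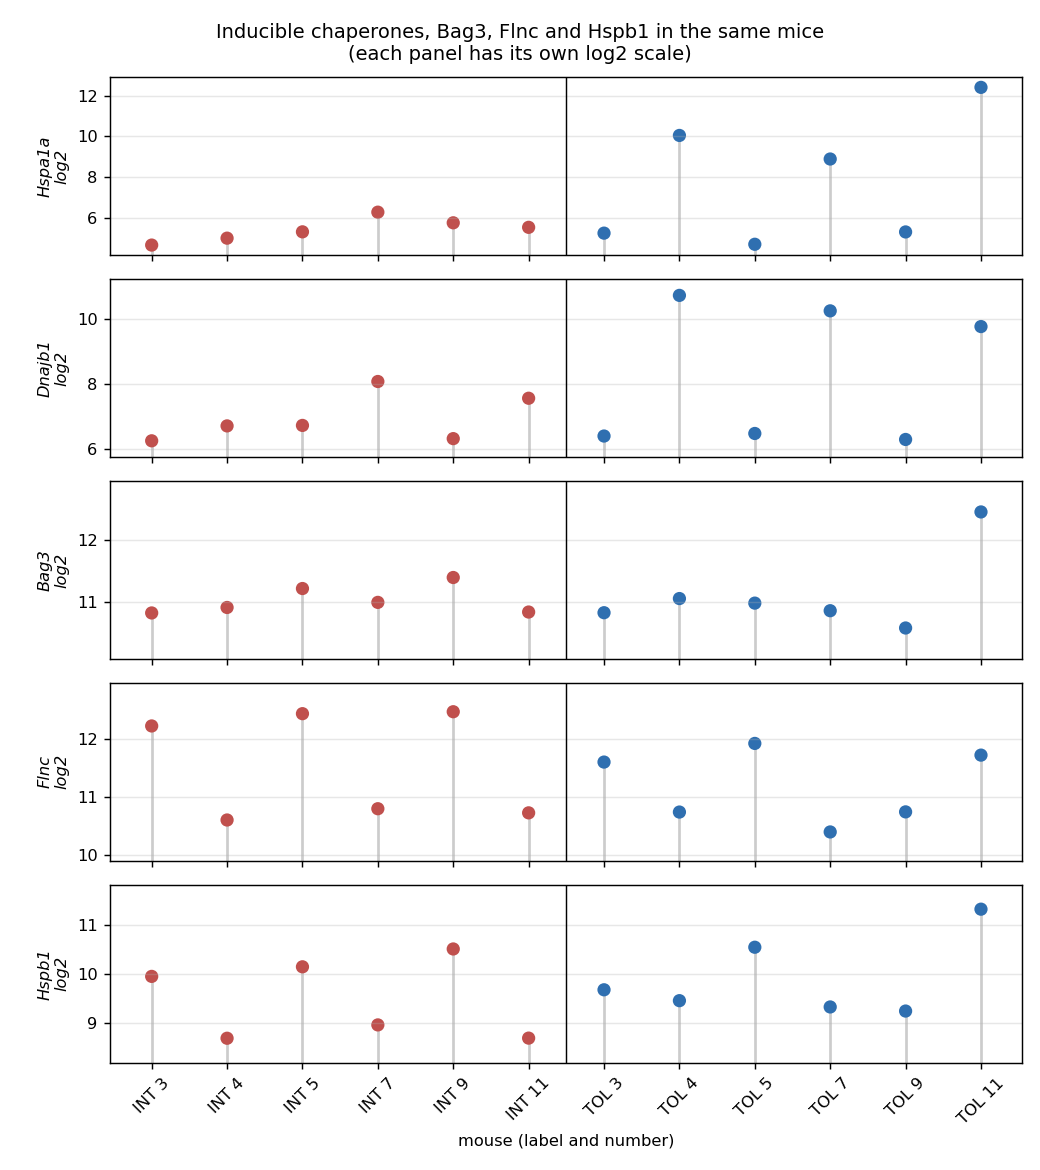
Log2 intensity of Hspa1a, Dnajb1, Bag3, Flnc and Hspb1 in each of the 12 mice, INT on the left in red and TOL on the right in blue, each panel on its own scale. Hspa1a and Dnajb1 stand out in TOL 4, TOL 7 and TOL 11, and Bag3 in TOL 11. Flnc and Hspb1 are both high in INT 3, INT 5 and INT 9, and also in TOL 5 and TOL 11, where Hspb1 peaks.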

How the data were processed

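Gastrocnemius RNA of 12 mice was measured on 12 Illumina MouseWG-6 v2 arrays, 1 per mouse. The authors read the scans with GenomeStudio (no version is stated in the notes and methods used), and their deposited signal table holds linear probe intensity, without background subtraction or normalization, with a detection p-value for each of 45281 probes. A second deposited table of processed intensity served as an alternative only. The mRNA labels came from sample titles and source names. A free-text field that calls every sample heat intolerant was disregarded.

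With limma 3.58.1 in R 4.3.3, background was corrected by neqc with controls inferred from detection p-values, and after an offset of 16 the arrays were quantile normalized on the log2 scale. Probes with a detection p under 0.05 on 6 or more arrays were tested with lmFit and eBayes (intensity trend), TOL against INT with 6 mice each, two-sided, with Benjamini-Hochberg adjustment over 15570 probes. A gene with several tested probes was given by the one with the highest mean. Platform annotation names 34885 probes by 1 symbol, while 18 with several and 10378 with none stayed unnamed. Single genes were also compared by the exact permutation test of 6 against 6 (smallest p 0.0022), and correlations by 100000 permutations, or all 720 pairings within a label, adjusted over 28 relations. The number of arrays limits the precision. For each member the 5 genes with the highest r were named, and listed genes by an unadjusted p of 0.05 or less, or otherwise the smallest p. The members and lists were chosen with earlier results of these data known. Flnc, Des, Hspa1a, Dnajb1 and Bag3 were described by mouse after their values were seen. Scripts were tested on simulated data. Same-numbered mice of both labels did not deviate together (r from -0.0072 to 0.148 over all probes), so the numbers were not used as pairs. Alternatives were the background method, offset, scaling, filter, array weights, replicate block, the methods' t-test and leaving out each mouse.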

Additional observations from a re-analysis of the deposited data

Results flagged for a closer look

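Of 26 groups of 6 mice examined for a lone extreme value, 2 were flagged, where chance flags about 5% of groups. The Cryab value of TOL 9, 9.86, lay far under the nearest TOL mouse at 10.79, a gap of 0.625 of the whole TOL range, just at the limit of 0.625. The Bag3 value of TOL 11, 12.45, lay above the nearest TOL mouse at 11.06, a gap of 0.746 of the range. The cause of either value was not tested.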

How the results depend on the processing

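Member probes called stayed at 0 under all alternatives run, at the adjusted and the unadjusted threshold, and the smallest adjusted p of a member was 0.442. The replicate block on mouse number gave 124 probes called against 129, and no member changed its call (log2 fold changes unchanged, Hspb1 limma adjusted p = 0.719). The mice share only a number, and none of the 12 was most like its namesake. Probes called over the whole array were 77 when detection on all 12 arrays was asked for, 52 by the methods' t-test, and 78 (without INT 7) to 152 with 1 mouse left out, with 79 without TOL 3. Without the filter 3131 probes of 45281 had an unadjusted p of 0.05 or less, against 1543.

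Signs of small differences turned. Median scaling, which moved the median log2 fold change of all probes to -0.07, gave -0.047 for Hspb3, -0.0097 for Hspb6 and -0.11 for Hspb8. Array weights gave 0.047 for Cryab and 0.082 for Hspb7, and the mean of all probes gave -0.049 for Hspb8. With 1 mouse left out the log2 fold changes ranged from -0.019 to 0.15 for Hspb3, -0.15 to 0.18 for Cryab, -0.44 to 0.057 for Hspb7 and -0.090 to 0.079 for Hspb8.

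Gene pairs that passed the adjusted threshold numbered 6 under median scaling (Hspb1 with Cryab and Hspb8, Cryab with Hspb2, Hspb7 and Hspb8, and Hspb6 with Hspb7) and 0 to 5 with 1 mouse left out: 5 without TOL 11, 2 without TOL 9 and 1 without INT 11. Slow-twitch relations numbered 0 to 2 with 1 mouse left out, the 2 being Hspb1 and Hspb8 without INT 9. The r of Hspb2 with Hspb3 was 0.29 under median scaling and from -0.25 to 0.16 with 1 mouse left out. With the replicate block 16 of the 21 pairs had r above 0, against 20, and the pairs that turned were Hspb3 with Hspb7 (-0.21), Hspb3 with Hspb6 (-0.28), Hspb2 with Hspb8 (-0.14) and Hspb6 with Hspb8 (-0.034). The block r of Hspb7 with the slow-twitch level was -0.085, against -0.0015 after centring each label, -0.20 by Spearman's rho and from -0.34 to 0.16 with 1 mouse left out. The causes of these changes were not tested.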
